A study of Mus musculus with 12 samples.

Results

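The mRNAs of 10 genes of the muscle acetylcholine receptor and the motor endplate were examined in C2C12GFP cells, a line of mouse myoblasts that express green fluorescent protein. The genes were picked by name, as rows of a table of 55536 mouse genes, with no rule on their values but with earlier results of these data known. They encode the receptor subunits alpha 1 (*Chrna1*), beta 1 (*Chrnb1*), delta (*Chrnd*), gamma (*Chrng*), and epsilon (*Chrne*), the agrin receptor *Lrp4*, the kinase *Musk*, its activator *Dok7*, the receptor scaffold *Rapsn*, and the esterase *Ache*. The cells were differentiated into myotubes on uncoated plates (control) or after the plates had received a coat of Collagen I, of fibronectin, or of Geltrex™, a basement membrane matrix made mainly of laminin, Collagen IV, and entactin. Each of the 4 groups had 3 samples, all groups received the same low-serum differentiation medium, and RNA was sequenced in 12 libraries with 22520404 to 27351766 counts on genes. The study names triplicate samples but not separate cultures, so p-values measure only the spread between these samples, which may be technical. The cells are a single line in culture without nerve, and the day of differentiation at which RNA was taken is not given in the sources used here.

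The muscle acetylcholine receptor is a pentamer that opens when the motor nerve releases acetylcholine. Fetal and denervated muscle builds it with the gamma subunit, and innervated adult muscle replaces gamma with epsilon at the synapse. Nerve-derived agrin binds *Lrp4*, which activates the kinase *Musk* with the help of the adaptor *Dok7*, and rapsyn, the product of *Rapsn*, then gathers the receptors under the nerve ending. Acetylcholinesterase (*Ache*) clears the transmitter and is anchored in the synaptic cleft by the collagen-like tail protein *Colq*. Receptor subunit genes are switched on during myoblast fusion by myogenic factors, of which myogenin (*Myog*) is one, through short E-boxes in their promoters. At the synapse, neuregulin and agrin signals act through ETS factors that bind an N-box.

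The promoters of *Chrng*, *Chrna1*, *Musk*, and *Chrne* are shown first, because the myogenic E-box and the synaptic N-box are the elements for which these genes are known. They are also the members, of 7 with a RefSeq promoter entry, whose windows held CAGCTG. The windows are the bases before the RefSeq transcript start on GRCm38.p6, cut where an annotated exon begins, and read 5′ to 3′ on the gene's strand. Capitals mark every CANNTG (E-box) and every CCGGAA (N-box), both searched on both strands, and CAGCTG is 1 form of CANNTG.
*Chrng* promoter, chr1:87205561-87205809, plus strand: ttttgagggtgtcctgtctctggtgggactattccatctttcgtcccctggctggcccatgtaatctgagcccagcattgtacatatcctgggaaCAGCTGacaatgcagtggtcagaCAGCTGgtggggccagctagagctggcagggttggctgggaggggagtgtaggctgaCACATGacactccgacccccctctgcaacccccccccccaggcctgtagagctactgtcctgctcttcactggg
*Chrna1* promoter, chr2:73580339-73580588, minus strand: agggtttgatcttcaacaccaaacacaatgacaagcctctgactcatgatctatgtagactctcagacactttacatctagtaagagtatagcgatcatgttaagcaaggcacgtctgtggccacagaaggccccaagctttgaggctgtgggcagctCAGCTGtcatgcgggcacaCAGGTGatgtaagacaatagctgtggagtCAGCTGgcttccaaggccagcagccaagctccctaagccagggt
*Musk* promoter, chr4:58285712-58285959, plus strand: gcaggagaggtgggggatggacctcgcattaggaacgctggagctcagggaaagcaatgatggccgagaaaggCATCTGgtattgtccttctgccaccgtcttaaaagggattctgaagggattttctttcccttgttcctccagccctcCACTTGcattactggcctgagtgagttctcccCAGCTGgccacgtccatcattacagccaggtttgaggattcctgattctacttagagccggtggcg
*Chrne* promoter, chr11:70619217-70619444, minus strand: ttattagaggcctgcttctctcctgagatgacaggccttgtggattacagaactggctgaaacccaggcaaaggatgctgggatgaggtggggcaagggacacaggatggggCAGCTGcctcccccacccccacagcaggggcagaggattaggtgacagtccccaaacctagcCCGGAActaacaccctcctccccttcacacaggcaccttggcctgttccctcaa
*Chrng* held 3 E-boxes, of which CAGCTG stood 155 and 132 bases before the transcript start. *Chrna1* also held 3, with CAGCTG 92 and 44 bases before the start, and *Musk* held 3, with 1 CAGCTG 68 bases before it. *Chrne* held 1 CAGCTG and was the gene among these 4 with an N-box, 76 bases before its start. Among the members not shown, the *Chrnb1* window held 3 E-boxes, that of *Ache* held 1, and the 2 windows of *Dok7* held 1 and 0, none of them CAGCTG and with no N-box. Over 32851 RefSeq promoters, the 250 bases before the start held CANNTG in 66.2% and 3 or more copies of it in 12.2%, CAGCTG in 13.0% and 2 or more copies in 1.26%, and CCGGAA in 12.03%. A match is a string of letters and was not tested as a binding site. The *Chrng* window lies inside the longer *Chrng* gene model of GENCODE M21, outside its exons.

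All 55536 identifiers of the count table are those of GENCODE M21 on GRCm38, which gave the positions. *Chrnd* (ENSMUSG00000026251, chr1:87190607-87200070) and *Chrng* (ENSMUSG00000026253, chr1:87204657-87212694) are neighbors on the plus strand of chromosome 1, 4586 bases apart. *Chrna1* (ENSMUSG00000027107, chr2:73563215-73580338, minus strand), *Lrp4* (ENSMUSG00000027253, chr2:91457511-91513779), and *Rapsn* (ENSMUSG00000002104, chr2:91035620-91045729) lie on chromosome 2. *Chrnb1* (ENSMUSG00000041189, chr11:69784036-69795943) and *Chrne* (ENSMUSG00000014609, chr11:70614883-70619216) lie on the minus strand of chromosome 11. *Dok7* (ENSMUSG00000044716, chr5:35056766-35087839) and *Ache* (ENSMUSG00000023328, chr5:137287519-137294466) lie on chromosome 5, and *Musk* (ENSMUSG00000057280, chr4:58285960-58374303) on chromosome 4. Whether counting used the strand is not given in the sources used here. Of the 10 genes, *Rapsn* shared 0.222% of its exon bases and *Ache* 2.12% with a gene on the opposite strand, and the other 8 shared none.

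On fibronectin, the gamma subunit had the largest fall among the receptor subunits. *Chrng* had 319, 303, and 258 CPM (counts scaled for library size, by TMM) in the control samples, 261, 233, and 274 on Collagen I, 88.0, 62.7, and 75.8 on fibronectin, and 154, 138, and 144 on Geltrex™. Its fibronectin and Geltrex™ samples were all below the control and Collagen I samples and did not overlap with each other. The 12 libraries were fitted together by the quasi-likelihood method of edgeR, and p-values were adjusted after Benjamini and Hochberg for 14499 genes with enough counts to be tested. In this fit, *Chrng* was 3.89-fold lower on fibronectin than in the control (log2 fold change -1.96 ± 0.12 SE, adjusted p = 1.31e-08) and 2.02-fold lower on Geltrex™ (-1.01 ± 0.11 SE, adjusted p = 5.03e-06). It was also 1.92-fold lower on fibronectin than on Geltrex™ (adjusted p = 2.78e-05). On Collagen I, the log2 fold change over the control was -0.20 ± 0.11 (SE), which did not pass the test (adjusted p = 0.422). In bulk RNA, fewer myotubes and less of an mRNA in each myotube cannot be told apart.

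The delta subunit, encoded next to gamma, took the same order of groups with smaller steps. *Chrnd* had 172, 165, and 146 CPM in the control, 153, 153, and 154 on Collagen I, 82.9, 71.0, and 77.6 on fibronectin, and 116, 122, and 122 on Geltrex™. The 3 fibronectin samples were the lowest of the 12, the 3 Geltrex™ samples came next, and the Collagen I samples lay within the range of the control. By edgeR, it fell 2.09-fold on fibronectin (log2 fold change -1.06 ± 0.080 SE, adjusted p = 1.27e-07) and 1.34-fold on Geltrex™ (-0.42 ± 0.079 SE, adjusted p = 0.000678) relative to the control. *Chrnd* and *Chrng* were the members that differed between fibronectin and Geltrex™, with *Chrnd* 1.56-fold lower on fibronectin (adjusted p = 3.88e-05).

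The subunits alpha 1 and beta 1 fell on both matrices, and for each gene the fall on fibronectin was close to that on Geltrex™. *Chrna1*, whose product carries most of the acetylcholine binding site, had 1054, 1057, and 1066 CPM in the control, 1016, 974, and 876 on Collagen I, 677, 674, and 633 on fibronectin, and 679.5, 665, and 711 on Geltrex™. *Chrnb1* had 182, 167, and 164 CPM in the control, 173, 164, and 166 on Collagen I, 131, 132, and 140.0 on fibronectin, and 133, 138, and 139 on Geltrex™. For both genes, the fibronectin and Geltrex™ samples overlapped with each other and lay below every control and Collagen I sample. Relative to the control, *Chrna1* fell 1.60-fold on fibronectin (edgeR, adjusted p = 7.43e-06) and 1.55-fold on Geltrex™ (adjusted p = 1.18e-05). *Chrnb1* fell 1.27-fold (adjusted p = 0.00146) and 1.25-fold (adjusted p = 0.00222), and by these fitted values it was the tested receptor subunit with the smallest fall on either matrix. Between fibronectin and Geltrex™, the log2 differences were -0.05 ± 0.076 (SE) for *Chrna1* and -0.03 ± 0.070 (SE) for *Chrnb1*, and neither passed the test.

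**Figure D1:**
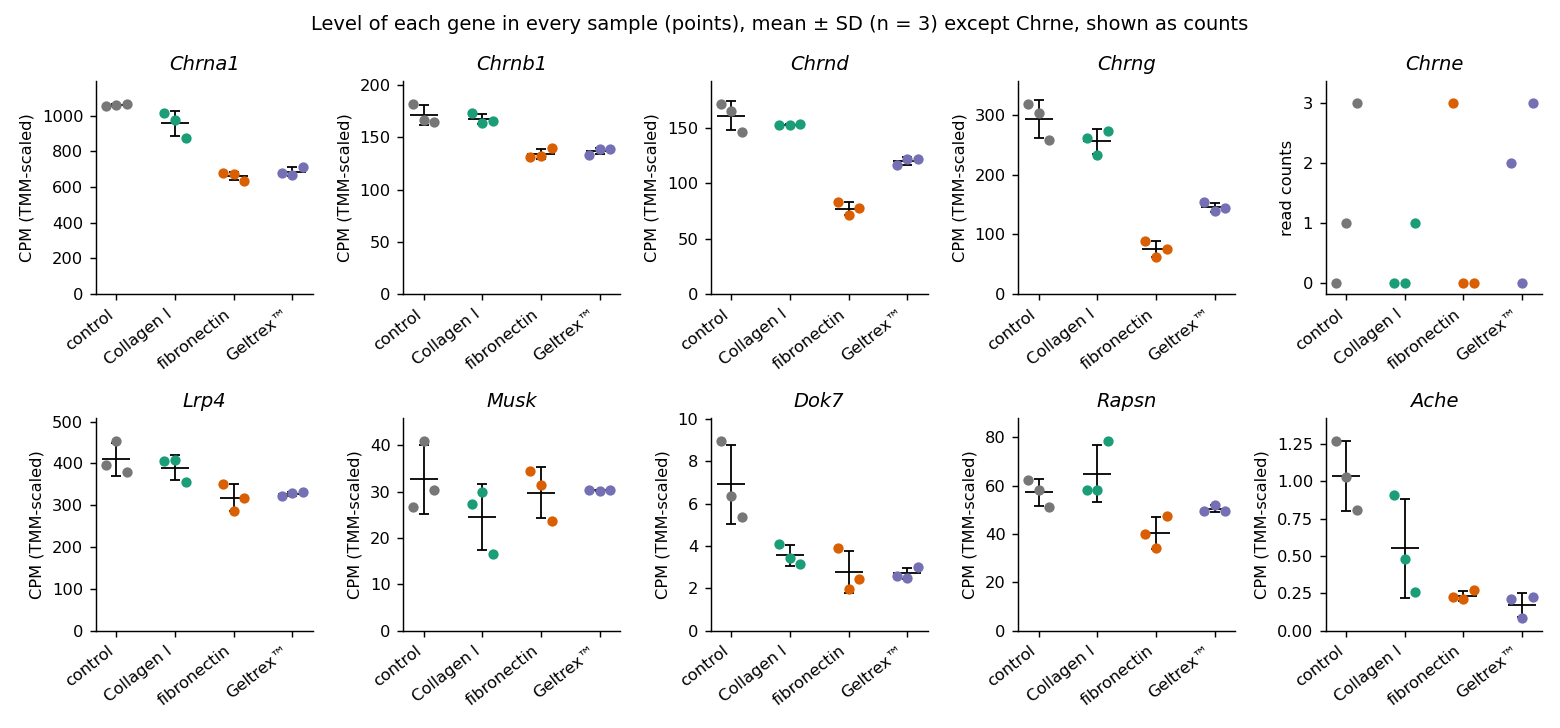
Level of each gene in each library in CPM (vertical axis, starting at 0), by group, with points for the 3 samples and bars for the mean ± SD; *Chrne* is drawn as read counts, without bars. *Chrng* and *Chrnd* step down from the control and Collagen I to Geltrex™ and then to fibronectin, *Musk* shows no such step, and *Chrne* has at most 3 counts in any library.

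The adult epsilon subunit was almost not counted in any group. *Chrne* had 0, 1, and 3 counts in the control, 0, 0, and 1 on Collagen I, 3, 0, and 0 on fibronectin, and 2, 0, and 3 on Geltrex™. This made 13 counts in all libraries together, against 56968 for *Chrng*, and 6 of the 12 libraries held none. It did not pass the filter on low counts and was the member without a test. A floor of 3 counts per library corresponds to 0.110 to 0.135 CPM. This floor does not cover the spread between samples, nor the counting error where 3 reads were counted.

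The fetal and adult subunits were then compared per kilobase of exon within each library, with *Chrne* set to 3 counts in every library, which is the highest count it had. Gamma was 823-fold to 1119-fold above that level in the control samples and 816-fold to 859-fold above it on Collagen I. It was 203-fold to 321-fold above it on fibronectin and 431-fold to 488-fold on Geltrex™. In 3 libraries *Chrne* had exactly 3 counts, and there these are the measured ratios. The values follow the level of *Chrng*, since the floor is nearly the same in every library, and they depend on the length used: with coding length, the values on fibronectin were 388-fold to 615-fold. As a share of gamma plus epsilon per length, gamma made up 99.95 ± 0.063% (SD, n = 3) in the control, 99.99 ± 0.022% on Collagen I, 99.90 ± 0.18% on fibronectin, and 99.88 ± 0.12% on Geltrex™. With *Chrne* at the floor, the lowest share in any library was 99.51%, on fibronectin. An exact permutation test of the log2 ratio of the 2 genes (0.5 counts added to each) over the 4 groups gave p = 0.238. The spread of this ratio within a group is set by the 0 to 3 reads of *Chrne*, so a change of the epsilon subunit within that range was not detectable at this depth.

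**Figure D2:**
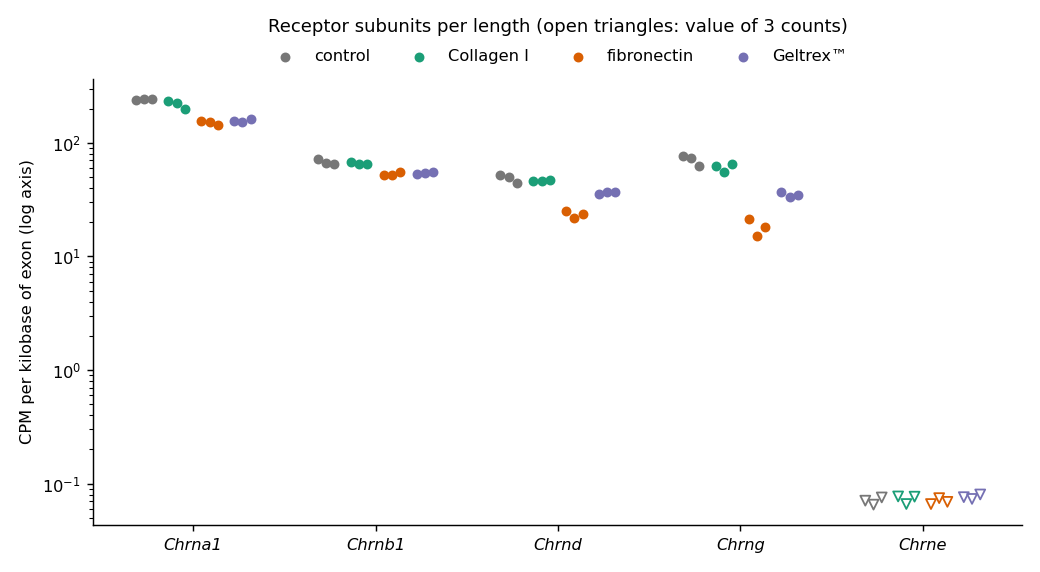
CPM per kilobase of exon (log axis) of the 5 receptor subunits in each library, colored by group; open triangles give the value that 3 counts of *Chrne* have in each library. The gamma subunit lies 203-fold or more above that value in all 12 libraries and is lowest on fibronectin.

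Per length, *Chrna1* was the most abundant member in every group, at 241 ± 1.42 CPM per kilobase (SD, n = 3) in the control, 218 ± 16.4 on Collagen I, 151 ± 5.64 on fibronectin, and 156 ± 5.45 on Geltrex™. In the control it was followed by *Chrng* (70.5 ± 7.57) and *Chrnb1* (67.6 ± 3.76), whose samples overlapped. *Chrnd* (49.0 ± 4.02), *Lrp4* (39.0 ± 3.79), *Rapsn* (31.7 ± 3.14), *Musk* (8.66 ± 1.98), *Dok7* (1.62 ± 0.43), and *Ache* (0.224 ± 0.050) came next, each with all samples above those of the following gene. On fibronectin, *Chrng* had rank 6, at 18.1 ± 3.05 CPM per kilobase, with samples that overlapped those of *Rapsn* (22.5 ± 3.68). On Geltrex™, *Chrng* (34.9 ± 1.90) overlapped with *Chrnd* (36.5 ± 1.02). The order of *Chrng* against *Chrnb1* (on Collagen I), *Chrnd* (on fibronectin and Geltrex™), and *Rapsn* (on fibronectin) depends on the length used. With coding length, *Chrng* had rank 5 on fibronectin, and with the longest transcript it had rank 4.

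Ratios of 2 subunits within a library do not depend on library scaling. They were computed per kilobase for the 6 pairs of the 4 subunits with counts, a set added after the data had been seen. *Chrng* relative to *Chrna1* was 0.319, 0.302, and 0.255 in the control samples, 0.271, 0.252, and 0.329 on Collagen I, 0.137, 0.0979, and 0.126 on fibronectin, and 0.239, 0.219, and 0.213 on Geltrex™. The fibronectin values were the lowest of the 12, and the Geltrex™ values lay below all control and Collagen I values. Over the 4 groups, this ratio differed by an exact permutation test of the spread between group means (p = 0.0013, adjusted over the 6 pairs 0.0026). Its mean log2 value was -1.78 ± 0.17 (SD, n = 3) in the control, -1.83 ± 0.20 on Collagen I, -3.07 ± 0.25 on fibronectin, and -2.16 ± 0.086 on Geltrex™.

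The neighbors gamma and delta also changed their proportion. *Chrng* stood above *Chrnd* per length in all 6 control and Collagen I samples, with ratios of 1.20 to 1.47, and below it in all 3 fibronectin samples, with ratios of 0.698 to 0.839. Which of the 2 stood above depends on the length used, since *Chrng* was above *Chrnd* on fibronectin with the longest transcript (means of 27.2 and 26.2 CPM per kilobase), but the test of the ratio between groups does not. On Geltrex™ the ratios were 1.05, 0.894, and 0.930, on both sides of 1. Exact permutation tests over the 4 groups gave an adjusted p of 0.00039 for *Chrng* to *Chrnd* and for *Chrng* to *Chrnb1*, 0.0031 for *Chrnd* to *Chrna1* and for *Chrnd* to *Chrnb1*, and 0.0041 for *Chrnb1* to *Chrna1*. The mean log2 ratio of *Chrnb1* to *Chrna1* was -1.84 ± 0.086 (SD, n = 3) in the control, and the coated plates had -1.71 ± 0.094 (Collagen I), -1.51 ± 0.11 (fibronectin), and -1.53 ± 0.050 (Geltrex™). Between any 2 groups of 3, an exact permutation test cannot go below 0.1, so no single pair of groups could pass.

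**Figure D3:**
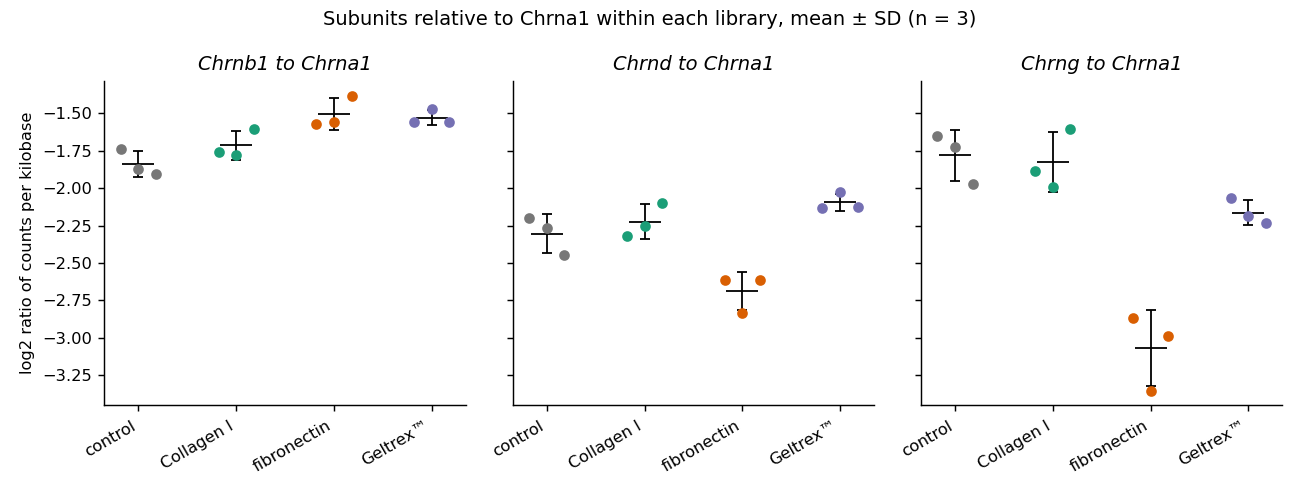
Log2 ratio of counts per kilobase of *Chrnb1*, *Chrnd*, and *Chrng* to *Chrna1* within each library (vertical axis), by group, with points for the samples and bars for the mean ± SD (n = 3). The gamma ratio falls to a mean of -3.07 on fibronectin, and the beta 1 ratio is higher on fibronectin and Geltrex™ than in the control.

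The agrin receptor passed the test on fibronectin and Geltrex™ and its kinase did not, and the difference between the 2 genes was not tested. *Lrp4* had 396, 455, and 379 CPM in the control, 405, 409, and 356 on Collagen I, 351, 287, and 318 on fibronectin, and 321, 329, and 330.4 on Geltrex™. Every fibronectin and Geltrex™ sample was below every control sample. By edgeR, *Lrp4* fell 1.29-fold on fibronectin (adjusted p = 0.00728) and 1.25-fold on Geltrex™ (adjusted p = 0.0128), and the second call was lost without control replicate 2 (adjusted p = 0.0777) and without Geltrex™ replicate 1 (adjusted p = 0.0607). *Musk* had 26.6, 41.0, and 30.4 CPM in the control, 27.3, 29.9, and 16.5 on Collagen I, 34.4, 31.4, and 23.6 on fibronectin, and 30.3, 30.2, and 30.4 on Geltrex™. Its groups overlapped except that all Geltrex™ samples were above all Collagen I samples. None of its comparisons passed the test with the filter on low counts, with log2 fold changes over the control of -0.41 ± 0.19 (SE) on Collagen I, -0.13 ± 0.19 on fibronectin, and -0.11 ± 0.19 on Geltrex™. With no filter, *Musk* was called lower on Collagen I than in the control (adjusted p = 0.0175), on fibronectin (0.0467), and on Geltrex™ (0.0334).

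*Dok7*, the activator of the kinase, was lower on all coated plates than in any control sample. It had 8.99, 6.38, and 5.39 CPM in the control, 4.12, 3.42, and 3.15 on Collagen I, 3.90, 1.97, and 2.45 on fibronectin, and 2.61, 2.51, and 3.02 on Geltrex™. The counts behind these values ran from 47 to 226 per library. By edgeR, it fell 2.48-fold on fibronectin (log2 fold change -1.31 ± 0.23 SE, adjusted p = 0.00057) and 2.55-fold on Geltrex™ (-1.35 ± 0.24 SE, adjusted p = 0.000379). On Collagen I, the log2 fold change over the control was -0.96 ± 0.23 (SE), with an adjusted p of 0.0564 that stood just outside the threshold. It passed with DESeq2 (adjusted p = 0.0063), with no filter on low counts (4.79e-05), and when any 1 of the 3 fibronectin libraries was left out of the shared fit (0.034 to 0.0473).

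*Rapsn*, the receptor scaffold, fell on fibronectin and was not called on the other plates. It had 62.2, 58.3, and 51.1 CPM in the control, 58.3, 58.1, and 78.6 on Collagen I, 40.0, 34.1, and 47.3 on fibronectin, and 49.6, 52.0, and 49.4 on Geltrex™. The fibronectin samples were the lowest 3 of the 12. Relative to the control, the fall on fibronectin was 1.41-fold (edgeR, adjusted p = 0.00789), and the log2 fold change on Geltrex™ was -0.18 ± 0.13 (SE, adjusted p = 0.297).

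*Ache* was counted in few reads. It had 32, 28, and 19 counts in the control, 21, 13, and 6 on Collagen I, 6, 5, and 7 on fibronectin, and 5, 2, and 5 on Geltrex™. In CPM, these were 1.27, 1.03, and 0.807, then 0.910, 0.483, and 0.259, then 0.223, 0.209, and 0.272, and then 0.214, 0.0824, and 0.225. All fibronectin and Geltrex™ samples were below all control samples, and Collagen I lay across the gap. By edgeR, *Ache* fell 4.34-fold on fibronectin (log2 fold change -2.12 ± 0.45 SE, adjusted p = 0.00217) and 5.88-fold on Geltrex™ (-2.56 ± 0.48 SE, adjusted p = 0.000715). The errors are the widest among the 9 tested members, and the fold on Collagen I (log2 fold change -0.91 ± 0.40 SE) did not pass the test (adjusted p = 0.302).

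**Figure D4:**
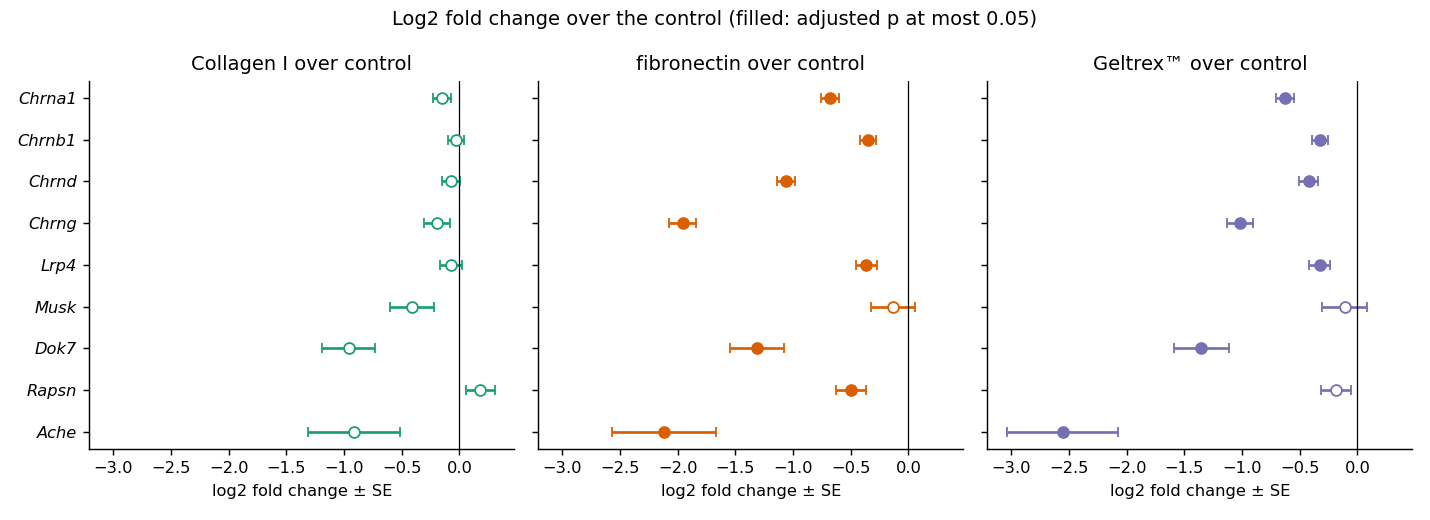
Log2 fold change over the control (horizontal axis) with its SE for the 9 tested genes on Collagen I, fibronectin, and Geltrex™, filled where the adjusted p was at most 0.05. No gene is filled for Collagen I, 8 are filled and lower for fibronectin, and 7 are filled and lower for Geltrex™; the 3 panels share the control samples.

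Counted together, 8 of the 9 tested members were lower on fibronectin than in the control and none was higher. Of all genes tested, 14.7% were lower and 17.1% higher in that comparison. On Geltrex™, 7 members were lower and none higher, against 16.6% lower and 16.4% higher of all genes. On Collagen I, no member was called by edgeR, where 0.917% of all genes were lower and 0.200% higher. DESeq2 called 1 member there, and 486 of 12812 genes with an adjusted p. An unadjusted edgeR p under 0.05 was seen for 3 members. The share of all genes at that threshold was not computed, so no excess can be read from this count. The median log2 fold change of the tested members was -0.68 on fibronectin, -0.42 on Geltrex™, and -0.15 on Collagen I, and that of all genes tested was -0.016, -0.012, and -0.0032. These 3 comparisons share the control samples. The filter kept a gene by its counts in the samples, and *Chrne* is not among those counted.

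The coated plates were also compared with each other. Relative to fibronectin, Collagen I had 6 members higher and none lower, against 22.1% higher and 22.9% lower of all genes tested. These were *Chrng* (3.39-fold, edgeR adjusted p = 2.17e-08), *Chrnd* (1.98-fold), *Rapsn* (1.60-fold), *Chrna1* (1.44-fold), *Chrnb1* (1.25-fold), and *Lrp4* (1.22-fold, adjusted p = 0.0178). The call of *Lrp4* was lost without Collagen I replicate 1 or 2 (adjusted p = 0.0653 and 0.0628) or fibronectin replicate 2 (0.0905). *Ache* and *Dok7*, not called here, passed without Collagen I replicate 3 (adjusted p = 0.0192) and without fibronectin replicate 1 (0.0395). Relative to Geltrex™, 7 members were higher on Collagen I and none lower, against 18.2% higher and 19.0% lower. The 4 subunits led by *Chrng* (1.76-fold, adjusted p = 4.37e-05) were among them, with *Ache* (3.12-fold, adjusted p = 0.0231), *Rapsn* (1.29-fold, adjusted p = 0.0335), and *Lrp4* (1.19-fold, adjusted p = 0.0409). The calls of these last 3 were lost without Geltrex™ replicate 2, which left 4 members (adjusted p = 0.106 for *Ache*, 0.0679 for *Rapsn*, and 0.106 for *Lrp4*). *Ache* was also lost without Collagen I replicate 1 (0.141), *Rapsn* without Collagen I replicate 3 (0.186) or Geltrex™ replicate 1 (0.0955) or 3 (0.0977), and *Lrp4* without Collagen I replicate 1 (0.129) or 2 (0.128), fibronectin replicate 3 (0.0511), or Geltrex™ replicate 1 (0.132) or 3 (0.0958). Between fibronectin and Geltrex™, 2 members were lower on fibronectin and none higher, against 9.06% lower and 10.3% higher of all genes. *Rapsn* (log2 difference -0.31 ± 0.13 SE, edgeR adjusted p = 0.101) passed without Collagen I replicate 3 (0.0368) or fibronectin replicate 3 (0.0253), with no filter on low counts (0.0258), and with only these 2 groups fitted (0.0451).

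A fold change of at least 2 beside the adjusted p left 4 members on fibronectin (*Chrnd*, *Chrng*, *Dok7*, and *Ache*), against 6.66% of all genes tested in either direction, and 3 on Geltrex™ (*Chrng*, *Dok7*, and *Ache*), against 9.14%. It left none on Collagen I over the control, against 0.131%, and none between fibronectin and Geltrex™, against 3.98%. It left *Chrng* for Collagen I over fibronectin, 1 member against 8.46%, and *Ache* for Collagen I over Geltrex™, 1 member against 9.32%.

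Samples of 2 groups that do not overlap give a count that needs no model. Every sample on fibronectin was below every control sample for 8 members, against 20.3% of all genes tested, and every sample on Geltrex™ for 7, against 25.1%. On Collagen I, this held for *Chrna1* and *Dok7*, 2 members, against 9.15%. Collagen I was above fibronectin in all samples for 6 members, against 25.9%, and above Geltrex™ for 8, against 27.1%. *Musk* was the 1 member with all Collagen I samples below all Geltrex™ samples, where 27.6% of all genes did the same. Fibronectin was below Geltrex™ in all samples for 3 members, *Chrng*, *Chrnd*, and *Rapsn*, against 21.2%.

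The cells carried the markers of myotubes, and these markers moved with the groups. The summed level of 12 myotube genes, of which the embryonic myosin *Myh3* was the highest, was 8797 to 9947 CPM in the control, 9169 to 10082 on Collagen I, 2876 to 3277 on fibronectin, and 3934 to 4409 on Geltrex™. All 12 were lower on fibronectin and on Geltrex™ than in the control by edgeR, with a median log2 fold change of -1.96 and -1.48. The summed level of 6 genes of dividing cells was 152 to 198 CPM in the control, 136 to 141 on Collagen I, 508 to 672 on fibronectin, and 542 to 593 on Geltrex™, and all 6 were higher on both matrices. Motor neuron markers summed to at most 0.384 CPM over 7 genes, and *Chat*, *Slc18a3*, and *Mnx1* were at 0 in every library. Schwann cell markers summed to at most 3.23 CPM over 5 genes, endothelial markers to at most 0.390 over 3, and macrophage markers to at most 1.59 over 4. Fibroblast markers were counted in all groups, led by *Dcn*, with sums of 2103 to 2619 CPM in the control, 2189 to 2364 on Collagen I, 1760 to 2001 on fibronectin, and 1423 to 1471 on Geltrex™ over 4 genes. The 4 satellite cell genes summed to 86.7 to 104 CPM in the control and Collagen I samples and 108 to 113 on the other plates, a difference carried by *Cd34* (mean control level 58.3 CPM, against 74.8 with fibronectin and 77.7 with Geltrex™). *Myf5* had means of 34.2, 36.1, and 33.0 CPM in these 3 groups and *Pax7* of 0.558, 0.487, and 0.217, and neither was called. The part of these markers in the members' changes was not tested.

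Each tested member was set against the mean log2 level of the 12 myotube genes in the same library, a measure also added after the data had been seen. *Chrna1* stood 1.53 ± 0.12 (SD, n = 3) log2 units above that mean in the control, 1.34 ± 0.039 on Collagen I, 2.63 ± 0.14 on fibronectin, and 2.28 ± 0.040 on Geltrex™. Against the myotube genes it was thus higher on fibronectin and Geltrex™, where its own CPM fell. The same held for *Chrnb1* (-1.10 in the control, 0.33 on fibronectin, -0.04 on Geltrex™), *Chrnd* (-1.19, -0.47, -0.23), and *Lrp4* (0.16, 1.57, 1.21). *Rapsn* also stood higher on this measure (-2.69, -1.41, -1.48), but its own CPM was called lower on fibronectin and not on Geltrex™. *Musk* went from -3.51 ± 0.25 in the control to -1.86 ± 0.18 on fibronectin and -2.22 ± 0.069 on Geltrex™. *Dok7* and *Ache* did not share this rise. *Dok7* stood at -5.76 ± 0.37 in the control, -6.73 ± 0.12 on Collagen I, -5.33 ± 0.36 on fibronectin, and -5.70 ± 0.095 on Geltrex™. Its fibronectin and Geltrex™ samples overlapped with the control. *Ache*, with few reads, stood at -8.49 ± 0.29, -9.60 ± 0.83, -8.84 ± 0.31, and -9.80 ± 0.74 in the same order of groups.

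On this scale, the group means of *Chrng* spanned less than those of the other subunits. Its value was -0.33 ± 0.12 (SD, n = 3) in the control, -0.56 ± 0.16 on Collagen I, -0.51 ± 0.17 on fibronectin, and 0.04 ± 0.065 on Geltrex™. The group means of *Chrna1* ran from 1.34 to 2.63, those of *Chrnb1* from -1.17 to 0.33, and those of *Chrnd* from -1.30 to -0.23. Since the myotube genes themselves fell, a gene of constant CPM stands higher on this scale on fibronectin and Geltrex™, and the values are given as a description.

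The genes whose log2 CPM followed *Chrng* most closely over the 12 samples were listed among 12312 genes with a mean of at least 1 CPM, the members left out. They were *Des* (Pearson r = 0.989), the muscle intermediate filament desmin, *Mylpf* (0.988), a fast myosin light chain, *Stac3* (0.982), a partner of the muscle calcium channel, *Thop1* (0.982), a peptidase, and *Mymk* (0.981), the fusogen myomaker. *Des* and *Mymk* are also on the list of myotube genes. These correlations run over the same libraries and the same group differences, and they are given as a description. *Mylpf*, for example, had a mean of 2276 CPM in the control, 2320 on Collagen I, 785 on fibronectin, and 1236 on Geltrex™, the order of *Chrng* apart from the first 2.

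Of 46 further genes of the endplate and its signals, 32 passed the filter on low counts. On fibronectin, 7 of these were higher and 12 lower than in the control, where 17.1% of all genes tested were higher and 14.7% lower. On Geltrex™, 9 were higher and 8 lower, against 16.4% and 16.6% of all genes. On Collagen I, none was called by edgeR, against 0.200% higher and 0.917% lower of all genes. DESeq2 called 2, where it called 486 of 12812 genes with an adjusted p. An unadjusted edgeR p under 0.05 was seen for 7. The share of all genes at that threshold was not computed, so no excess can be read from this count. The fibronectin count was 6 higher and 7 lower without fibronectin replicate 2 and also without control replicate 1. Calls over all genes fell as well in these fits, from 4618 of 14499 to 3469 of 14854 and 3144 of 14761. The median log2 fold change of the 32 genes was -0.042 on fibronectin, 0.0047 on Geltrex™, and -0.043 on Collagen I.

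Among ligands and their receptors, the neuregulin gene *Nrg1* and the neuregulin receptor *Erbb3* moved in opposite directions. *Nrg1* had 11.9, 17.7, and 14.2 CPM in the control, 37.3, 41.3, and 22.8 on fibronectin, and 42.9, 41.1, and 44.0 on Geltrex™. It was higher on both (edgeR, log2 fold change 1.21 ± 0.18 SE, adjusted p = 0.000112, and 1.55 ± 0.18 SE, adjusted p = 7.50e-06). *Erbb3* was lower on both (-1.24 ± 0.16 SE and -1.43 ± 0.16 SE), and *Erbb4* had no count in any library. Nerve-derived agrin starts the signal through *Lrp4* and *Musk*. These cells had no nerve, and the counts are per gene and do not separate transcript forms. The agrin gene *Agrn* had 30.1, 32.6, and 27.8 CPM in the control, 32.5, 28.3, and 35.0 on fibronectin, and 47.3, 52.8, and 50.0 on Geltrex™. It rose on Geltrex™ (log2 fold change 0.73 ± 0.094 SE, adjusted p = 2.02e-05) and was not called on fibronectin (0.08 ± 0.094 SE, adjusted p = 0.539), and it was lower on fibronectin than on Geltrex™ (-0.65 ± 0.094 SE, adjusted p = 0.000152).

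Of 6 tested transcription regulators, *Myog* fell furthest, from 272 ± 38.8 CPM (SD, n = 3) in the control to 63.6 ± 12.4 on fibronectin and 80.4 ± 3.27 on Geltrex™, with 285 ± 7.74 on Collagen I. By edgeR, its log2 fold change over the control was -2.10 ± 0.13 (SE) on fibronectin (adjusted p = 1.45e-08) and -1.76 ± 0.13 (SE) on Geltrex™ (adjusted p = 5.08e-08). *Myog* is also 1 of the 12 myotube genes. *Etv5*, an ETS factor known from the endplate, rose by 0.79 ± 0.11 (SE) and 1.36 ± 0.11 (SE) in log2 fold change. *Hdac9*, a class II deacetylase, rose on fibronectin (1.09 ± 0.15 SE) and stood at 0.0093 ± 0.15 (SE) on Geltrex™, and it was higher on fibronectin than on Geltrex™ (adjusted p = 0.000103). Of the 9 genes downstream of the kinase, 4 were higher and 2 lower on fibronectin, and 4 were higher and none lower on Geltrex™, against 17.1% higher and 14.7% lower of all genes on fibronectin and 16.4% and 16.6% on Geltrex™. *Abl2*, a tyrosine kinase, rose most on Geltrex™ (1.09 ± 0.12 SE), followed by its relative *Abl1* (0.59 ± 0.074 SE), and *Dvl1*, a Wnt signaling adaptor, fell on fibronectin (-0.36 ± 0.11 SE). The call of *Dvl1* was lost without control replicate 1 (edgeR adjusted p = 0.0956) and without fibronectin replicate 2 (0.0843).

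*Colq*, which anchors acetylcholinesterase, was lower on the same plates as *Ache*. It had 8.55, 7.78, and 5.82 CPM in the control, 7.63, 7.51, and 7.94 on Collagen I, 2.60, 2.01, and 2.64 on fibronectin, and 3.63, 2.72, and 3.88 on Geltrex™. By edgeR, its log2 fold change over the control was -1.61 ± 0.18 (SE) on fibronectin (adjusted p = 7.06e-06) and -1.12 ± 0.18 (SE) on Geltrex™ (adjusted p = 0.000136). The other anchor gene for the esterase, *Prima1*, had no count in any library.

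Of 11 anchors, channels, and matrix genes, none was higher and 5 were lower on fibronectin, and 2 were higher and 4 lower on Geltrex™, beside the same shares of all genes (17.1% higher and 14.7% lower, and 16.4% and 16.6%). *Scn4a*, the adult muscle sodium channel, fell on both (log2 fold change -1.95 ± 0.23 SE and -1.85 ± 0.23 SE, edgeR adjusted p = 1.36e-05 and 1.67e-05). *Ncam1*, the neural cell adhesion molecule of immature and denervated fibers, had 547, 566, and 544 CPM in the control, 493, 473, and 435 on Collagen I, 378, 390.4, and 368 on fibronectin, and 338, 329.7, and 352 on Geltrex™. It fell on fibronectin (-0.54 ± 0.072 SE, edgeR adjusted p = 3.87e-05) and on Geltrex™ (-0.70 ± 0.073 SE, adjusted p = 2.19e-06), and on Collagen I all samples were below the control without passing the test (-0.24 ± 0.072 SE, adjusted p = 0.112), although DESeq2 called it (adjusted p = 0.0169). *Utrn*, the anchor utrophin, rose on Geltrex™ (0.41 ± 0.14 SE, adjusted p = 0.0349) and was not called on fibronectin (0.35 ± 0.14 SE, adjusted p = 0.0681). Neither result of *Utrn* is stable: on Geltrex™ it was lost without control replicate 1 or 3 or any 1 Geltrex™ sample (adjusted p from 0.0548 to 0.151), and on fibronectin it passed without control replicate 2 (0.00869) or fibronectin replicate 3 (0.0313), with the replicate block (0.0392), with DESeq2 (0.049), and with no filter on low counts (0.00146). The laminin chain gene *Lama4* rose on Geltrex™ (0.92 ± 0.099 SE, adjusted p = 3.43e-06). Of 11 neuronal nicotinic subunits, only *Chrnb2* passed the filter on low counts, with 8 to 39 counts per library, and it was lower on fibronectin (edgeR adjusted p = 0.0364). This call was lost without control replicate 1 or 2 or fibronectin replicate 1 or 2 (adjusted p from 0.0682 to 0.159). The other neuronal subunits had at most 5 counts in any library.

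**Figure D5:**
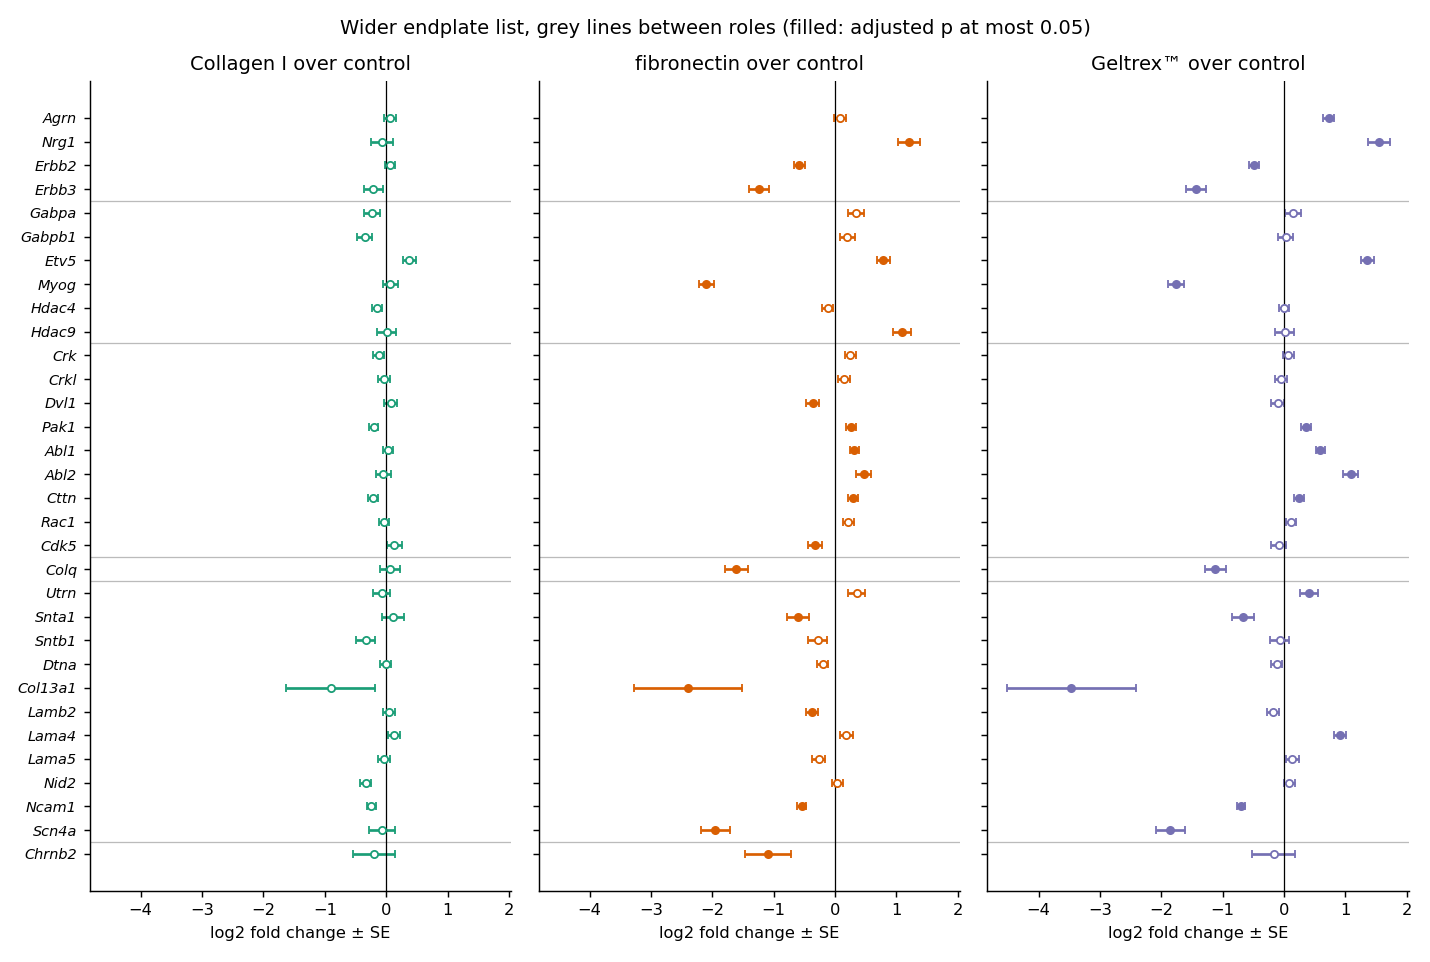
Log2 fold change over the control (horizontal axis) with its SE for the 32 tested further endplate genes on the 3 coatings, grouped by role between grey lines and filled where the adjusted p was at most 0.05. *Myog*, *Erbb3*, *Colq*, and *Scn4a* lie to the left on fibronectin and Geltrex™, *Nrg1* and *Etv5* lie to the right, and no gene is filled on Collagen I; the 3 panels share the control samples.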

How the data were processed

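RNA-seq of 12 samples (4 groups of 3) was examined. The authors used FastQC, Trimmomatic, HISAT2, and featureCounts, and deposited raw read counts per gene without normalization. The genome build, the annotation, and the use of strand are not given in the sources used here. The counts went through edgeR 4.0.16 under R 4.3.3: filterByExpr (minimum count 10, minimum total 15), TMM scaling, and 1 quasi-likelihood fit with the 4 groups (8 residual degrees of freedom). Calls needed a Benjamini-Hochberg adjusted p of at most 0.05 over 14499 genes. Named genes were all members, *Agrn*, *Nrg1*, *Colq*, *Utrn*, up to 3 called genes per role with the largest change over the control and a mean of at least 1 CPM, and the 5 genes most like *Chrng*. *Chrnb2* and *Mylpf* were also described after their values were seen. The members and all lists were chosen with earlier results of these data known. An item of the endplate list is not reported here and entered no count over the list. Ratios within a library were tested by exact permutation. Alternatives were DESeq2 1.42.0, RLE scaling, other filters, only the groups compared, a replicate block, a fold change of at least 2, and leaving out each sample. Procedures were tested on simulated data. For fibronectin over the control, the simulated fit recovered 40 of 73 genes changed 1.5-fold, 54 of 63 changed 2-fold, and 61 of 64 changed 4-fold. Of its 164 calls, 9 were false. A change of about 1.5-fold or less can therefore go without a call.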

Additional observations from a re-analysis of the deposited data

How the results depend on the processing

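Calls of members and their directions were recomputed under DESeq2, RLE scaling, 2 other filters on low counts, only the groups compared, a replicate block, a fold change of at least 2, and without each sample. No called direction was reversed for any member. On Collagen I over the control, the count of members called rose from 0 to 1 with DESeq2 and with the replicate block (*Dok7*) and to 2 with no filter on low counts (*Dok7* and *Musk*), where *Musk* was also called lower on Collagen I than on fibronectin and Geltrex™, and the count of further endplate genes went from 0 to 2 with DESeq2 and with no filter. The cause was not tested. A fold change of at least 2 left 4 members on fibronectin over the control, 3 on Geltrex™ over the control, 1 on Collagen I over fibronectin, 1 on Collagen I over Geltrex™, and 0 on fibronectin over Geltrex™, and 0, 8, 8, 6, 6, and 1 further endplate genes in the 6 comparisons, since it removes smaller changes by construction. Without each sample in turn, members called ran from 0 to 1 (Collagen I over the control), 8 to 8 (fibronectin over the control), 6 to 7 (Geltrex™ over the control), 5 to 7 (Collagen I over fibronectin), 4 to 7 (Collagen I over Geltrex™), and 2 to 3 (fibronectin over Geltrex™), and further endplate genes from 0 to 0, 13 to 23, 14 to 17, 21 to 25, 17 to 20, and 5 to 11. Of all genes tested, a fold change of at least 2 left 0.131%, 6.66%, 9.14%, 8.46%, 9.32%, and 3.98% in the 6 comparisons, in this order. Without each sample in turn, all genes called ran from 44 to 233, 3144 to 5293, 3582 to 5352, 5141 to 6676, 4049 to 5649, and 1717 to 3436. These fits tested 14761 to 14859 genes. Same-numbered replicates did not deviate together in every pair (correlations from -0.154 to 0.225), so the number was not used as a pairing. The replicate block moved no member's log2 fold change by more than 0.039 and changed 1 of 54 calls, *Dok7* for Collagen I against the control (adjusted p = 0.0241). It moved the count of further endplate genes on fibronectin against the control from 19 to 22, with *Gabpa*, *Crk*, and *Utrn* gained, and on fibronectin against Geltrex™ from 7 to 8, with *Myog* gained. With the block, all genes called went from 4618 to 4627 and from 2805 to 2799 in these comparisons. Of all genes, 162 were called for Collagen I against the control, 486 with DESeq2, 581 with no filter, and 39 when only these 2 groups were fitted. Members with few counts, *Ache* and *Chrne*, are limited by depth.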
